A study of Mus musculus with 6 samples.

Results

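The distal microRNA cluster of the Dlk1-Dio3 imprinted domain was examined in J1 mouse embryonic stem cells. Its members were all hairpins with a Mir symbol on the plus strand between 109.7 and 109.75 Mb of mouse chromosome 12 (GRCm38), which gave 38 of the 1174 such hairpins annotated in GENCODE M21. The cells were grown on gelatin with 1000 U/ml leukemia inhibitory factor, which keeps embryonic stem cells undifferentiated, and were treated for 24 h. There were 6 groups: DMSO (1 µL) as a vehicle, retinoic acid (1 µM), BIO (1 µM), CHIR99021 (3 µM), ddH2O (1 µL) as the other vehicle, and vitamin C (50 µg/ml). Retinoic acid drives embryonic stem cells to differentiate, BIO and CHIR99021 block GSK3, a kinase that restrains Wnt signalling, and vitamin C is a cofactor of enzymes that demethylate histones and oxidise methylated DNA. Each group was 1 small RNA library, so there is no spread between replicates and no p-value. Intervals below are 95% exact conditional binomial (Clopper-Pearson) intervals of counting error only, and since the reads carry no molecular identifiers a molecule may be counted more than once.

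A microRNA hairpin is cut from a long transcript and then trimmed to a short duplex, whose 5p or 3p strand is loaded into an Argonaute protein and pairs with target messages mainly through its seed, bases 2 to 8. The domain is imprinted: protein-coding genes such as Dlk1 are expressed from the paternal chromosome, and the non-coding RNAs Meg3, Rian and Mirg, with the microRNAs and snoRNAs they carry, from the maternal one. The cluster runs from Mir379 to Mir410 and is placental-mammal specific, is abundant in brain, and its silencing in some induced pluripotent stem cell lines marks poor developmental potential.

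The most abundant members with a RefSeq mature sequence (GRCm38.p6) are shown first because they carry most of the cluster's tags, with the seed in capitals and each sequence written 5′ to 3′.
miR-323-3p: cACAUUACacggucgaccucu
miR-382-5p: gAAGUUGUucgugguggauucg
miR-541-5p: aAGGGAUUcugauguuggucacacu
miR-543-3p: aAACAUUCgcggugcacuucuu
miR-376a-3p: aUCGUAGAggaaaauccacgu
miR-382-3p: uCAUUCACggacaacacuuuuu
miR-495-3p: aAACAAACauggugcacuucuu
miR-379-5p: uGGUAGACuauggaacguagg
miR-134-5p: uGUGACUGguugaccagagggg

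The next set is shown because these members had large ratios in a treated library, miR-485-3p, miR-329-3p, miR-494-3p and miR-154-3p in CHIR99021 and miR-299a-5p and miR-410-3p in retinoic acid.
miR-485-3p: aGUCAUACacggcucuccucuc
miR-329-3p: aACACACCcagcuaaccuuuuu
miR-494-3p: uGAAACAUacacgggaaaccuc
miR-154-3p: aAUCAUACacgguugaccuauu
miR-299a-5p: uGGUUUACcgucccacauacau
miR-410-3p: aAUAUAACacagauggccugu

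In RefSeq, 68 of the 72 arms with tags matched a mature sequence, and the 71 mature sequences of the member hairpins held 65 distinct seeds. Of the 71, 30 began with U, 27 with A, 10 with G and 4 with C. Only 6 seeds were shared by a pair of members, and 11 others were shared by a member and a microRNA outside the cluster. The pairs were miR-379-5p with miR-1193-5p, miR-379-3p with miR-411-3p, miR-1197-5p with miR-758-5p, miR-453 with miR-496a-5p, miR-410-5p with miR-494-5p, and miR-376b-5p with miR-376c-5p. The partners in the first 2 pairs are printed to show that they differ outside the seed, together with miR-411-5p, whose seed no other member shares.
miR-1193-5p: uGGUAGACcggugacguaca
miR-411-5p: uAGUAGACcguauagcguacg
miR-379-3p: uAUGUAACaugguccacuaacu
miR-411-3p: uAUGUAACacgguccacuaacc

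Some members shared longer runs of bases. MiR-543-3p and miR-495-3p ended in the same 12 bases, ggugcacuucuu, while their seeds differed. MiR-300-3p and miR-381-3p shared a run of 16 bases, and miR-376b-5p and miR-376c-5p one of 18, which includes their common seed. Tags were assigned by exact match, and no member arm had to be merged with another.

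Along the chromosome the hairpins covered 38901 bases, chr12:109709060-109747960. GENCODE annotates Mirg, by 12 transcripts, at chr12:109729764-109749460. Of the 38 hairpins, 24 therefore lay upstream of the annotated Mirg, from Mir379 at chr12:109709060-109709125 to Mir544 at chr12:109729325-109729402, and the name Mirg covers the other 14 only. Of those, 5 lay in Mirg introns, 4 lay within an exon of at least 1 transcript, and 5 overlapped an exon. The window also held Mir3072 (chr12:109747878-109747960), 4.08 kb beyond Mir410. The nearest hairpins outside the window, Mir882 before it and Mir3073a after it, had no counted tag in any library. Inside its ends, Mir379 reached 997 to 2836 CPM and Mir3072 65.8 to 273 CPM over the libraries, where CPM is the tags of an arm or hairpin per 1000000 microRNA tags of the library.

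Tags were found for 36 of the 38 hairpins, and none for Mir654 and Mir453. These gave 72 arms of 1263 arms with tags in the series. Of the 72, 58 reached 10 CPM in at least 1 library, 37 reached 100 CPM and 16 reached 1000 CPM, while 14 stayed under 10 CPM in all libraries. Those 14, such as both arms of miR-544 and of miR-679, were too low to compare.

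The libraries held 18870345 to 23758363 tags, of which 3.76% (retinoic acid) to 11.4% (DMSO) were microRNA tags. MicroRNA depth was 2155068 tags in DMSO, 1748591 in ddH2O, 729178 in retinoic acid, 2099670 in BIO, 1428511 in CHIR99021 and 1890061 in vitamin C, so retinoic acid values carry the widest intervals. With 3 counts as the limit for an arm without tags, levels under 4.11 CPM could be missed in retinoic acid and levels under 1.39 to 2.10 CPM in the others. The embryonic stem cell list (the miR-290 and miR-302 clusters, 18 of 25 arms at 10 CPM or more) summed to 168440 CPM in retinoic acid and to 272856 to 342621 CPM in the other 5 libraries, the highest of all marker lists in every library. In these whole cultures, fewer cells of a type and less RNA per cell cannot be told apart. Labels do not say whether libraries came from separate cultures.

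The cluster made up 5.59% of the microRNA tags in DMSO (5.56 to 5.62%) and 4.96% in ddH2O (4.93 to 4.99%). It made up 3.50% in BIO (3.47 to 3.52%) and 2.93% in CHIR99021 (2.90 to 2.95%), the lowest of the 6 libraries. In vitamin C it was 5.27% (5.24 to 5.31%), between the vehicles, and in retinoic acid 7.38% (7.32 to 7.44%). Against all tags of a library, whatever their source, the order changed. Per 1000000 tags of all kinds, the cluster had 6383 in DMSO, 4840 in vitamin C, 4262 in ddH2O, 3299 in BIO, 2778 in retinoic acid and 1759 in CHIR99021. CHIR99021 was lowest on both scales, and retinoic acid moved from the highest place to the fifth.

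**Figure D1:**
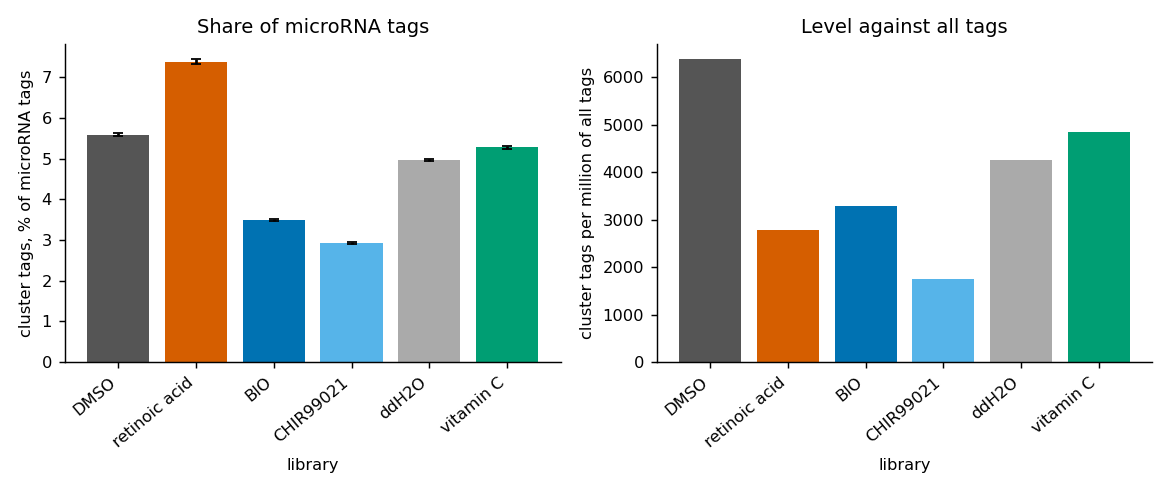
Summed tags of the 72 member arms in each library, as a percentage of microRNA tags with Clopper-Pearson intervals (left) and per 1000000 tags of all kinds (right); each bar is 1 library. BIO and CHIR99021 lie below both vehicles in both panels, at 3.50% and 2.93% against 5.59% and 4.96%, whereas retinoic acid is highest on the left and below BIO on the right.

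A few arms carried most of the signal. The 10 most abundant held 72.1% (retinoic acid) to 77.0% (CHIR99021) of the cluster's tags, and miR-323-3p and miR-382-5p alone held 27.7% to 34.9%. MiR-323-3p, from the hairpin at chr12:109712508-109712593, stood at 12069.7 CPM in DMSO, 9819 in ddH2O, 11752 in retinoic acid, 6212 in BIO, 5739 in CHIR99021 and 10288 in vitamin C. Both GSK3 inhibitor libraries lay apart from the other 4, which ranged from 9819 to 12069.7 CPM. MiR-382-5p, whose hairpin (chr12:109733771-109733846) overlaps a Mirg exon, had 7421 CPM in DMSO, 5900.2 in ddH2O, 8719 in retinoic acid, 3529.6 in BIO, 3982 in CHIR99021 and 7351 in vitamin C. Its partner arm miR-382-3p had 2780.4 CPM in DMSO, 2332 in ddH2O, 3158 in retinoic acid, 1136 in BIO, 1394 in CHIR99021 and 2975 in vitamin C. For both arms of miR-382, unlike miR-323-3p, BIO was the lowest library.

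MiR-541-5p, from a Mirg intron, varied least among the abundant arms, at 4012 CPM in DMSO, 3933 in ddH2O, 5723 in retinoic acid, 3440.1 in BIO, 3103 in CHIR99021 and 3834 in vitamin C. MiR-543-3p had 4846 CPM in DMSO, 4103 in ddH2O, 4187 in retinoic acid, 3275 in BIO, 2274 in CHIR99021 and 4012 in vitamin C. Here retinoic acid lay within the range of the vehicles and vitamin C was just under it. MiR-376a-3p, of a family known for A-to-I editing in brain, had 2839.8 CPM in DMSO, 3174 in ddH2O, 5359 in retinoic acid, 2169 in BIO, 1869.8 in CHIR99021 and 3097 in vitamin C. MiR-485-5p, known from neurons as a regulator of synapse proteins, had 3201 CPM in DMSO, 2725 in ddH2O, 5135 in retinoic acid, 2555 in BIO, 1527 in CHIR99021 and 2526 in vitamin C. In both, retinoic acid was the highest library and CHIR99021 the lowest.

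MiR-495-3p had 2005 CPM in DMSO, 1846 in ddH2O, 3259.8 in retinoic acid, 1529 in BIO, 1025 in CHIR99021 and 2031 in vitamin C. MiR-379-5p, from the first hairpin of the cluster, had 1853 CPM in DMSO, 1688 in ddH2O, 2770.2 in retinoic acid, 1207 in BIO, 981 in CHIR99021 and 1576 in vitamin C. MiR-134-5p, known to limit dendritic spine growth in neurons and, in embryonic stem cells, to act on pluripotency factors during differentiation, had 1461 CPM in DMSO, 2017 in ddH2O, 3125 in retinoic acid, 1099 in BIO, 629 in CHIR99021 and 1542 in vitamin C. These 3 arms had the same order at the ends, with CHIR99021 lowest, BIO next and retinoic acid highest.

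**Figure D2:**
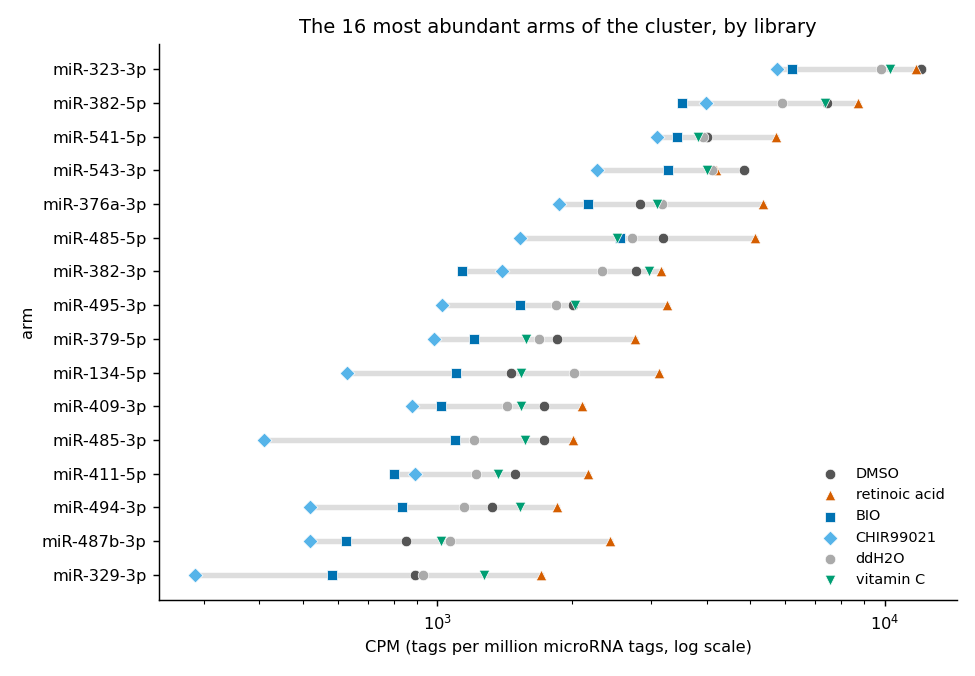
CPM of the 16 arms that reached 1000 CPM in at least 1 library, on a log axis; each marker is 1 library and the grey bar spans the 6. CHIR99021 or BIO is the lowest library for every one of these arms, and miR-485-3p and miR-329-3p show CHIR99021 furthest from the rest, at 410 and 288 CPM.

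CHIR99021 against DMSO compares the library treated with this GSK3 inhibitor at 3 µM with that of its vehicle. An arm was called when it differed at least 2-fold with an interval that excluded 1 and reached 10 CPM in the higher library. In CHIR99021, 22 of 54 measured members were lower and 0 were higher, while 12.3% of all 480 measured arms were called lower and 6.25% higher. The summed level was 1.91-fold lower (1.89 to 1.93), at 29256.0 against 55891 CPM. All 54 measured members had a log2 ratio below 0, beside 269 of all 480 measured arms. The member log2 ratios ran from -2.08 to -0.16, with a median of -0.92 beside -0.11 over all arms. Against ddH2O the member median was -0.83 beside -0.28 over all arms, a smaller gap. Over all 562 arms at 10 CPM or more in any library, CHIR99021 lay below both DMSO and ddH2O in 50.9%. It did so in 56 of the 58 such members. The exceptions, named after their values were seen, were miR-666-3p and miR-667-5p, both under 25 CPM in all libraries.

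The largest ratio in CHIR99021 among members at 100 CPM or more was that of miR-485-3p, the partner of the neuronal miR-485-5p. MiR-485-3p had 1734 CPM in DMSO, 1206 in ddH2O, 2009 in retinoic acid, 1094 in BIO, 410.2 in CHIR99021 and 1570.3 in vitamin C. It was 4.23-fold lower (3.87 to 4.62) in CHIR99021 than in DMSO. MiR-329-3p, which with miR-134 is induced by neuronal activity through Mef2, had 889 CPM in DMSO, 929 in ddH2O, 1706 in retinoic acid, 582 in BIO, 288 in CHIR99021 and 1271 in vitamin C, and was 3.09-fold lower (2.78 to 3.45). MiR-134-5p was 2.32-fold lower (2.15 to 2.50). MiR-381-3p, a further microRNA of that Mef2 set, was 3.65-fold lower (1.51 to 10.64) from only 4.20 against 15.3 CPM. In miR-485-3p, miR-329-3p and miR-134-5p the CHIR99021 library lay below all 5 others.

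Other called members at 100 CPM or more in DMSO included both arms of the miR-323 and miR-154 hairpins and the other arm of miR-485. MiR-494-3p had 1327 CPM in DMSO, 1144 in ddH2O, 1856 in retinoic acid, 833 in BIO, 519 in CHIR99021 and 1528 in vitamin C, and was 2.56-fold lower (2.36 to 2.78). MiR-154-3p had 419 CPM in DMSO, 282 in ddH2O, 901 in retinoic acid, 232 in BIO, 169 in CHIR99021 and 436 in vitamin C. Both had CHIR99021 as the lowest library and retinoic acid as the highest. MiR-154-3p was 2.47-fold lower (2.14 to 2.86), miR-154-5p 2.05-fold lower (1.59 to 2.67) and miR-758-5p 3.38-fold lower (2.56 to 4.54). The intervals of the 2 arms of miR-154 overlapped. Of the most abundant arms, miR-323-3p was 2.10-fold lower (2.05 to 2.16), miR-543-3p 2.13-fold lower (2.05 to 2.22) and miR-485-5p 2.10-fold lower (2.00 to 2.20). MiR-323-5p was 2.16-fold lower (1.84 to 2.54), miR-299a-5p 2.18-fold lower (1.68 to 2.85) and miR-377-5p 2.03-fold lower (1.59 to 2.60). All 6 of these arms lay just past the 2-fold threshold.

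The 8 further called members were under 100 CPM in both libraries. MiR-667-3p was 4.01-fold lower (2.49 to 6.80), on 20 against 121 tags, and miR-495-5p 4.20-fold lower (1.76 to 12.15), on 6 against 38 tags. MiR-377-3p, miR-410-5p, miR-379-3p, miR-539-5p, miR-3072-5p and miR-3072-3p were 3.31-, 3.24-, 2.53-, 2.42-, 2.18- and 2.03-fold lower, each with an interval above 1. The smallest ratios at 100 CPM or more were those of miR-410-3p, 1.13-fold lower (0.97 to 1.31), whose interval included 1, and miR-409-5p, 1.23-fold lower (1.01 to 1.50). MiR-541-5p was 1.29-fold lower (1.25 to 1.34), miR-411-3p 1.33-fold lower (1.10 to 1.60) and miR-666-5p 1.34-fold lower (1.12 to 1.60). Against DMSO, the 2 arms of the miR-410 hairpin thus stood at opposite ends, although miR-410-5p is the minor arm. This contrast depended on the vehicle. MiR-410-5p had 77.03 CPM in DMSO but 38.9 in ddH2O, beside 23.8 in CHIR99021. The 5p share of the hairpin was 26.02% in DMSO, 13.1% in ddH2O and 10.9% in CHIR99021.

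BIO, an inhibitor of the same kinase given at 1 µM, was compared with the same DMSO library. In BIO, 8 of 54 measured members were lower and 0 higher, beside 5.3% lower and 1.91% higher among all 472 measured arms. The summed level was 1.60-fold lower (1.58 to 1.61), at 34973 against 55891 CPM, and the median log2 ratio of the members was -0.59 beside -0.09 over all arms. Of the 54, 51 were below 0, beside 58.1% of all arms. BIO lay below both vehicles in 51 of 58 members, beside 47.5% of all arms. The exceptions were miR-1193-3p, miR-3072-5p, miR-323-5p, miR-496a-3p, miR-543-5p, miR-667-3p and miR-667-5p.

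Both arms of miR-382 were called in BIO, miR-382-3p 2.45-fold lower (2.33 to 2.57) and miR-382-5p 2.10-fold lower (2.05 to 2.16). MiR-377-5p was 2.18-fold lower (1.75 to 2.72). The other 5 called members were under 100 CPM in DMSO: miR-381-3p was 3.57-fold lower (1.67 to 8.49), miR-410-5p 3.11-fold lower (2.27 to 4.33), miR-1197-3p 2.67-fold lower (1.82 to 3.98), miR-380-5p 2.17-fold lower (1.44 to 3.30) and miR-412-3p 2.11-fold lower (1.03 to 4.59). The miR-410-5p value depended on the vehicle, at 77.03 CPM in DMSO and 38.9 in ddH2O beside 24.8 in BIO. Just under the threshold, miR-323-3p was 1.94-fold lower (1.90 to 1.98) and miR-411-5p 1.86-fold lower (1.76 to 1.98). At the other end, miR-496a-3p was 1.01-fold higher (0.87 to 1.18), and miR-541-5p 1.17-fold lower (1.13 to 1.20). MiR-299a-5p was 1.20-fold lower (1.00 to 1.45), miR-1193-5p 1.20-fold lower (1.11 to 1.31) and miR-329-5p 1.15-fold lower (0.99 to 1.35).

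BIO and CHIR99021 were given at different doses, so their values stand side by side without a comparison, and both ratios share the DMSO library. For miR-485-3p the log2 ratio was -0.67 in BIO and -2.08 in CHIR99021. For miR-329-3p it was -0.61 and -1.63, and for miR-134-5p -0.41 and -1.21. For miR-382-5p it was -1.07 and -0.90. TMM factors moved all ratios by 0.11 in BIO and 0.07 in CHIR99021, which left member medians of -0.45 and -0.84. Median-of-ratios factors moved them by 0.13 and 0.10, with medians of -0.44 and -0.81. Scaled to all tags, which moved all ratios by -0.28 and -0.93, the medians were -0.86 and -1.84. Of the 58 members, CHIR99021 was the lowest of all libraries for 43, BIO for 14 and ddH2O for 1. This ranking was not counted over all arms. Of all arms, 50.9% had CHIR99021 and 47.5% had BIO below both vehicles.

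**Figure D3:**
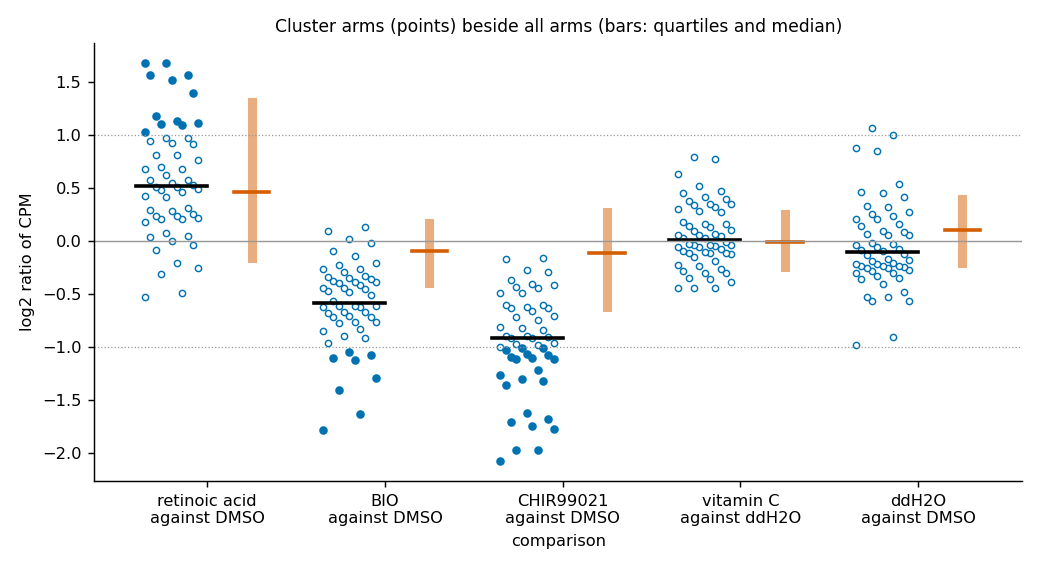
Log2 ratios of the measured member arms in the 5 comparisons (points; filled where called, black line their median), beside the median and quartiles over all measured arms (orange). The medians are 0.52, -0.59, -0.92, 0.01 and -0.11 from left to right, beside 0.46, -0.09, -0.11, -0.01 and 0.11 over all arms; dotted lines mark a 2-fold difference.

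Signs of other differences moved with these libraries. The liver microRNA miR-122 (1 of 2 arms at 10 CPM or more) summed to 1325 CPM in CHIR99021 and to 22.4 to 54.9 CPM in the other 5. Muscle markers (miR-1a, miR-133a and miR-206, 3 of 4 arms at 10 CPM or more) summed to 589 CPM in CHIR99021, 1174 in BIO, 1406 in DMSO, 2847 in ddH2O, 1702 in vitamin C and 6326 in retinoic acid. Fibroblast markers (7 of 11 arms) summed to 6471 CPM in CHIR99021, 5266 in BIO, 6714 in DMSO, 9536 in ddH2O, 7900 in vitamin C and 13658 in retinoic acid. Neuron markers (miR-124 and miR-9, 7 of 8 arms) ran from 1290.5 CPM in retinoic acid to 3919 in CHIR99021 and 5835 in vitamin C, and blood markers (3 of 4 arms) from 163 to 306 CPM. No list was at 0 in any library. Their part in the differences of the cluster was not tested.

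The length of tags also moved. Tags of 18 and 19 bases made up 19.98% of the cluster's tags in DMSO, 15.8% in ddH2O, 14.3% in retinoic acid, 10.3% in BIO, 16.4% in CHIR99021 and 18.6% in vitamin C. Counting only tags of 20 to 25 bases, the summed log2 ratio was -0.56 in BIO instead of -0.68, and -0.89 in CHIR99021 instead of -0.93. For miR-323-3p in BIO the log2 ratio was -0.41 instead of -0.96. The cause of the shorter tags was not tested.

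Retinoic acid against DMSO addresses the cluster after 24 h of a differentiation signal. In retinoic acid, 12 of 56 measured members were higher and 0 lower, beside 33.2% higher and 7.69% lower among all 533 measured arms, so the share of members called higher was under that of all arms. Summed, the cluster stood at 73795 against 55891 CPM, a ratio of 1.32 (1.31 to 1.33). Its median log2 ratio of 0.52 lay close to the 0.46 of all arms. Retinoic acid was the highest of the 6 libraries for 46 of 58 members, beside 50.5% of all arms. This direction rests on the scaling: relative to TMM factors, which moved all ratios by -0.51, the member median was 0.01 beside -0.09 over all arms, and per 1000000 tags of all kinds it was -1.08 beside -1.14.

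Among members at 100 CPM or more, miR-299a-5p had 117 CPM in DMSO, 161 in ddH2O, 376 in retinoic acid, 97.6 in BIO, 53.9 in CHIR99021 and 179 in vitamin C, and was 3.20-fold higher (2.69 to 3.81) in retinoic acid. MiR-487b-3p had 850.1 CPM in DMSO, 1069 in ddH2O, 2433 in retinoic acid, 625 in BIO, 519 in CHIR99021 and 1017 in vitamin C, and was 2.86-fold higher (2.68 to 3.06). In both, retinoic acid was more than any other library and CHIR99021 less. MiR-3072-3p was 2.63-fold higher (2.07 to 3.36), miR-410-3p 2.17-fold higher (1.88 to 2.49), miR-154-3p 2.15-fold higher (1.94 to 2.38) and miR-154-5p 2.04-fold higher (1.67 to 2.48). MiR-134-5p, at 3125 against 1461 CPM, was 2.14-fold higher (2.03 to 2.26). MiR-410-3p had 219 CPM in DMSO, 257 in ddH2O, 475 in retinoic acid, 160.0 in BIO, 195 in CHIR99021 and 219.6 in vitamin C, with retinoic acid apart from the other 5. The remaining calls were minor arms at 16.5 to 61.7 CPM in retinoic acid, miR-381-5p, miR-412-3p, miR-543-5p, miR-758-3p and miR-495-5p, at 3.22-, 2.96-, 2.96-, 2.25- and 2.18-fold.

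The most abundant arm did not follow: miR-323-3p was 1.03-fold lower (1.00 to 1.05). MiR-543-3p was 1.16-fold lower (1.11 to 1.21) and miR-666-5p 1.20-fold lower (0.96 to 1.51). MiR-323-5p was 1.06-fold lower (0.91 to 1.25) and miR-329-5p 1.05-fold higher (0.85 to 1.29), with intervals that included 1. MiR-376a-3p, at 5359 against 2839.8 CPM, was 1.89-fold higher (1.81 to 1.96), just under 2-fold.

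Vitamin C against ddH2O left the cluster without a called member: 0 of 58 were higher and 0 lower, beside 5.76% higher and 1.44% lower among all 486 measured arms. The summed level was 1.06-fold higher (1.05 to 1.07), and the median log2 ratio was 0.01 beside -0.01 over all arms. Among members at 100 CPM or more the largest ratio was that of miR-154-3p, 1.55-fold higher (1.38 to 1.73). MiR-329-3p was 1.37-fold higher (1.28 to 1.46), miR-494-3p 1.34-fold higher (1.26 to 1.41), miR-485-3p 1.30-fold higher (1.23 to 1.38) and miR-382-3p 1.28-fold higher (1.22 to 1.33). The lowest were miR-376b-3p, 1.36-fold lower (1.19 to 1.56), and miR-134-5p, 1.31-fold lower (1.25 to 1.37). MiR-329-5p, miR-496a-3p and miR-410-3p were 1.27-, 1.24- and 1.17-fold lower. The 2 arms of the miR-329 hairpin lay on opposite sides of 1 in vitamin C, each with an interval that excluded 1.

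The vehicle libraries, which differ in vehicle and may differ in culture and preparation, give the distance between untreated samples. In ddH2O against DMSO, 0 of 58 members were higher and 0 lower, beside 4.96% higher and 2.27% lower among all 484 measured arms. The summed level was 1.13-fold lower (1.12 to 1.14) and the median log2 ratio -0.11 beside 0.11. MiR-134-5p was 1.38-fold higher (1.32 to 1.45), miR-299a-5p 1.37-fold higher (1.15 to 1.63), miR-487b-3p 1.26-fold higher (1.18 to 1.34), miR-329-5p 1.25-fold higher (1.08 to 1.45) and miR-154-5p 1.21-fold higher (1.01 to 1.45). On the other side, miR-154-3p was 1.48-fold lower (1.33 to 1.66), miR-485-3p 1.44-fold lower (1.36 to 1.52) and miR-323-5p 1.40-fold lower (1.23 to 1.59). MiR-369-5p was 1.32-fold lower (1.13 to 1.55) and miR-666-5p 1.27-fold lower (1.08 to 1.51). All of these intervals exclude 1, so these vehicle libraries differed by more than counting error, and a spread of this size is not covered by the intervals of the other comparisons. With ddH2O as the control, the member median was -0.53 in BIO beside -0.26 over all arms, and -0.83 in CHIR99021 beside -0.28. Then 9 of 58 members were lower in BIO beside 9.88% of all arms, and 18 of 58 in CHIR99021 beside 13.7%. For retinoic acid against ddH2O the member median was 0.63 beside 0.41, and 9 of 58 members were higher beside 26.4% of all arms. Calls made against DMSO were kept against ddH2O for 5 of 8 members in BIO, 13 of 22 in CHIR99021 and 6 of 12 in retinoic acid.

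Position along the cluster was examined with the 26 hairpins that had 100 or more tags in every library, both arms summed. In CHIR99021 all 26 were lower than in DMSO with an interval below 1, at ratios from 0.385 (Mir329) to 0.772 (Mir666), with a median of 0.541. In BIO 25 were lower, from 0.457 (Mir382) to 0.855 (Mir541), and Mir496a stood at 1.01. Ratios of neighbours were alike in some places and apart in others. The 25 pairs were formed in order among these 26, so some have hairpins with fewer tags between them. The intervals of both did not overlap in 10 pairs in CHIR99021, 15 in BIO and 14 in retinoic acid. With ddH2O as the control the counts were 14, 12 and 10. Pairs outside the cluster were not counted. In vitamin C against ddH2O, without a called member, 13 pairs did not overlap. Mir329 and Mir494, for example, were 2.60-fold lower (2.37 to 2.85) and 2.55-fold lower (2.35 to 2.77) in CHIR99021 against DMSO. Against ddH2O they were 2.80-fold lower (2.55 to 3.08) and 2.21-fold lower (2.03 to 2.41), so this likeness depended on the vehicle. Mir666 and Mir543, whose starts lie 0.173 kb apart, were 1.30-fold lower (1.09 to 1.55) and 2.13-fold lower (2.05 to 2.21) against DMSO. Against ddH2O they were 1.08-fold lower (0.89 to 1.30) and 1.80-fold lower (1.73 to 1.88) in CHIR99021. Mir382 and Mir134 start 0.368 kb apart, and their contrast depended on the vehicle. In BIO, Mir382 was 2.19-fold lower (2.13 to 2.24) and Mir134 1.33-fold lower (1.26 to 1.40) against DMSO, but 1.76-fold lower (1.72 to 1.81) and 1.83-fold lower (1.74 to 1.93) against ddH2O. In retinoic acid, Mir382 was 1.16-fold higher (1.14 to 1.19) and Mir134 2.14-fold higher (2.03 to 2.26) against DMSO, and 1.44-fold higher (1.40 to 1.48) and 1.55-fold higher (1.47 to 1.63) against ddH2O. Between the vehicles, Mir134 was 1.38-fold higher (1.32 to 1.45) in ddH2O. These pairs were chosen after their values were seen.

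**Figure D4:**
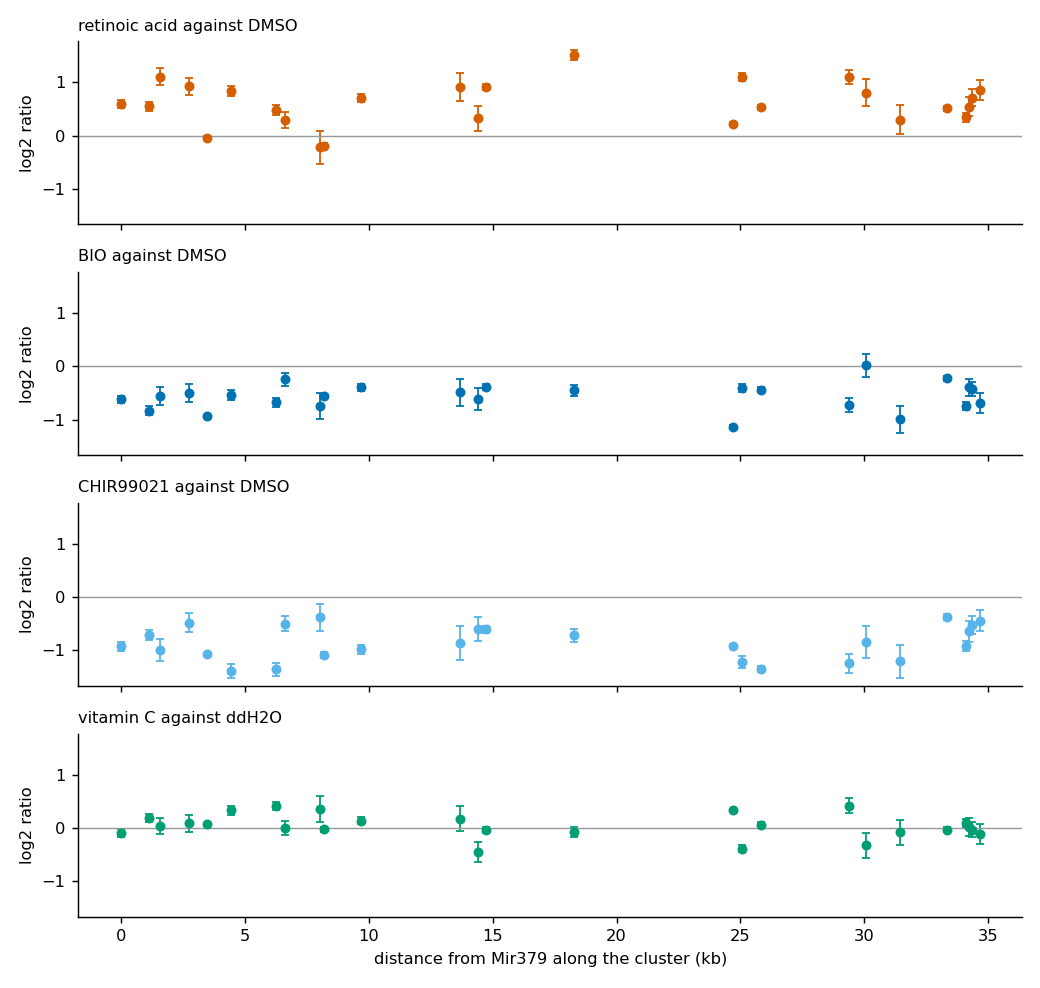
Log2 ratio of each hairpin with 100 or more tags in every library (26 hairpins), both arms summed, against its distance from Mir379 in kb, with 95% intervals of counting error; each panel is 1 comparison. In the CHIR99021 panel all 26 hairpins lie below 0 along the whole cluster, and in the BIO panel 25 do.

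By annotation, the 24 hairpins upstream of Mirg summed to 0.511 of their DMSO level in CHIR99021, the 4 within an exon to 0.417, the 5 that overlap an exon to 0.538 and the 5 in introns to 0.670. In BIO the same groups stood at 0.623, 0.731, 0.486 and 0.767. Each sum is led by a few abundant hairpins, such as Mir382 among those overlapping an exon and Mir541 in introns.

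The share of a hairpin's tags on its 5p arm does not depend on how libraries are scaled. Of the 26 hairpins, 10 gave mostly 5p tags and 15 mostly 3p tags in every library, and 17 varied by less than 5 percentage points over the 6 libraries. MiR-134, for example, was 99.9% to 100.0% 5p. The remaining hairpin was that of miR-299a, whose 5p share was 34.1% in DMSO, 39.9 in ddH2O, 50.8 in retinoic acid, 41.5 in BIO, 31.0 in CHIR99021 and 43.4 in vitamin C. The retinoic acid interval was 46.4 to 55.04%, which includes 50%, and that of CHIR99021 25.3 to 37.2%. With untemplated 3′ ends counted, the retinoic acid share was 48.8%, and no library had mostly 5p tags. For miR-329 the share was 15.9% in DMSO, 18.5 in ddH2O, 9.40 in retinoic acid, 20.1 in BIO, 29.4 in CHIR99021 and 11.6 in vitamin C. CHIR99021 (25.7 to 33.3%) and retinoic acid (7.90 to 11.1%) lay at the ends, and no interval of these overlapped DMSO (14.4 to 17.5%). For miR-485 it was 64.9% in DMSO, 69.3 in ddH2O, 71.9 in retinoic acid, 70.0 in BIO, 78.8 in CHIR99021 and 61.7 in vitamin C, with CHIR99021 (77.3 to 80.3%) above all others. These 3 hairpins varied most, and in miR-329 and miR-485 the 3p arm had a larger ratio in CHIR99021 than the 5p arm.

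**Figure D5:**
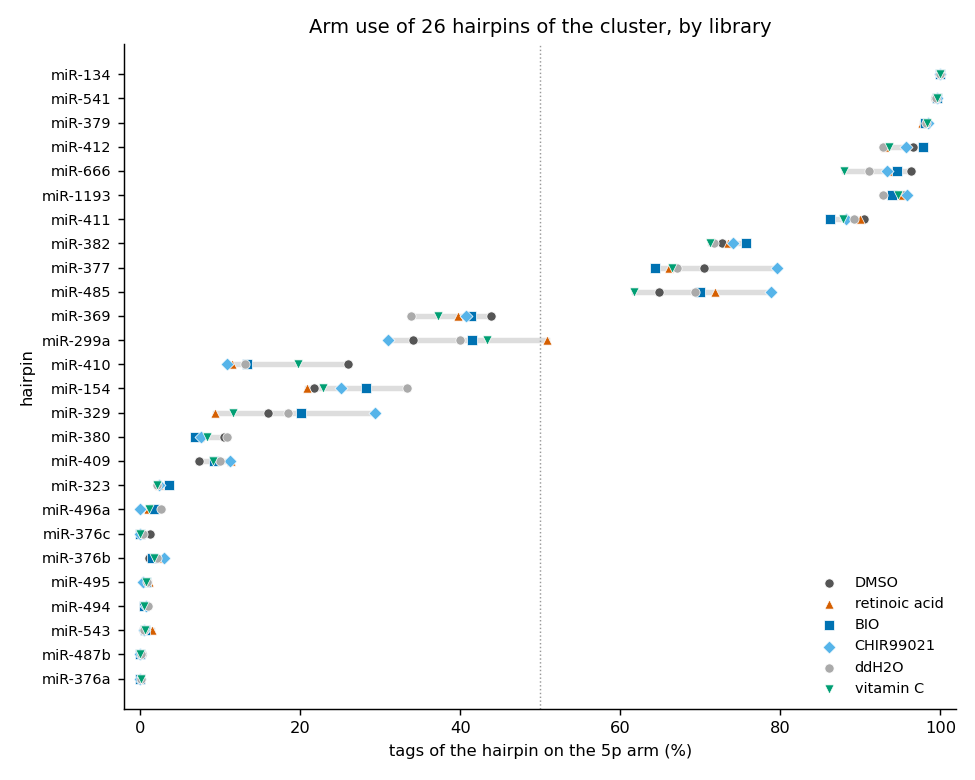
Percentage of a hairpin's tags on the 5p arm for 26 hairpins, ordered by the DMSO value; each marker is 1 library, the grey bar spans the 6, and the dotted line marks 50%. Most hairpins keep to one side, whereas miR-299a lies near 50% in retinoic acid (50.8%) and miR-329 and miR-485 have CHIR99021 at their upper end (29.4% and 78.8%).

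A tag's 5′ end sets its seed. Of 68 arms compared, 60 had their most abundant tag at the 5′ end given by RefSeq and 8 at another. The abundant one among the 8 was miR-382-3p, whose most abundant tag began 2 bases upstream of the RefSeq start, and miR-377-3p began 3 bases upstream. Both forms are printed with bases 2 to 8 in capitals, RefSeq in RNA letters and the tag in the DNA letters of the files.
miR-382-3p, RefSeq: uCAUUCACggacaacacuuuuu
miR-382-3p, most abundant tag: aATCATTCacggacaacact
miR-377-3p, RefSeq: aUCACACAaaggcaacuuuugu
miR-377-3p, most abundant tag: tGAATCACacaaaggcaactttt

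For miR-382-3p, 97.0% to 97.8% of tags in every library shared the upstream start, so bases 2 to 8 of nearly all its tags differ from those of the listed sequence. Of 32 arms with 100 or more tags in every library, 23 had 90% or more of their tags at a single 5′ end throughout. Mixed ends were seen in miR-409-3p (47.1% to 54.5% at the main start, with 29.7% to 41.5% a base upstream), miR-411-5p (57.8% to 61.9%) and miR-485-3p (45.9% to 59.5%). In miR-485-3p the share was 56.1% in DMSO, 49.7% in ddH2O, 59.5% in retinoic acid, 45.9% in BIO, 46.1% in CHIR99021 and 57.4% in vitamin C.

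The 3′ ends varied more. The most abundant tag of miR-323-3p had 19 bases, 2 fewer than RefSeq, and tags of 18 or 19 bases were 57.7% of this arm in DMSO and 35.9% in BIO, with the other 4 libraries at 47.9% to 55.95%. MiR-541-5p was the longest abundant arm, with a median length of 25 bases in retinoic acid, 24 in DMSO and 23 in the other 4. A single base not in the hairpin was added to 28.2% to 40.9% of miR-411-3p tags, mostly U (T in the files), and to 18.9% to 22.1% of miR-495-3p tags. MiR-376a-3p, by contrast, carried such a base on 1.03% to 1.95%.

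Adenosine-to-inosine editing, carried out by ADAR enzymes and known for the miR-376 family in brain, appears in reads as G in place of A. Over 35 arms with 1000 or more tags, 184 A positions were examined, and none reached 5% G in a library with 50 or more tags there. The median over positions was 0.00184% and the 95th percentile 0.0702%, with libraries pooled. The highest shares, named after their values were seen, were those of A6G in miR-376b-3p, at 2.81% (64 of 2277 tags), and A6G in miR-376c-3p, at 2.44% (36 of 1473), counting from 1 at the 5′ end. The next was A5G in miR-411-5p at 0.2%. Position 6 lies within the seed.
miR-376b-3p: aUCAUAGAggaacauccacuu

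In miR-376b-3p the A6G share was 2.58% in DMSO, 2.50 in ddH2O, 3.10 in retinoic acid, 3.48 in BIO, 2.62 in CHIR99021 and 2.89 in vitamin C. The Clopper-Pearson intervals, 1.42 to 4.30% in DMSO and 0.967 to 5.62% in CHIR99021, overlapped in all 6 libraries. In miR-376c-3p it was 1.26% in DMSO, 2.92 in ddH2O, 1.96 in retinoic acid, 2.24 in BIO, 2.54 in CHIR99021 and 3.56 in vitamin C, on 3 to 12 G tags per library. No tag of either arm had C or T at that position. A difference between treatments was not detectable at this depth.

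The rest of the domain was compared with the cluster. Upstream of it, between 109.4 and 109.7 Mb, lie 21 hairpins with 33 arms, led by miR-433-3p and miR-127-3p, which are processed from a transcript antisense to Rtl1. In CHIR99021, 4 of 23 measured arms of these were lower and 0 higher, beside 12.3% lower and 6.25% higher among all arms. Their median log2 ratio was -0.74 beside -0.92 for the cluster. In BIO, 3 of 23 were lower and 0 higher, beside 5.3% and 1.91% of all arms, the median being -0.44 beside -0.59. In retinoic acid, 7 of 25 were higher and 1 lower, beside 33.2% and 7.69% of all arms, the median being 0.56 beside 0.52. In vitamin C 3 of 23 were higher, against none in the cluster and 5.76% of all arms. The summed level of these neighbours against DMSO was 1.65-fold lower in CHIR99021 (1.63 to 1.68) and 1.34-fold lower in BIO (1.32 to 1.36). For the cluster it was 1.91- and 1.60-fold lower, with intervals of counting error that do not overlap those. The vehicles also differed: ddH2O was 1.03-fold lower (1.02 to 1.04) than DMSO for the neighbours and 1.13-fold lower (1.12 to 1.14) for the cluster. In ddH2O, CHIR99021 and BIO the neighbours summed to 22406, 13954 and 17182 CPM, beside 49626.5, 29256 and 34973 CPM for the cluster. Tags from 23 snoRNAs of the same span, also on the plus strand, had 48.4 tags per 1000000 tags of all kinds in DMSO, 41.5 in ddH2O, 36.4 in retinoic acid, 36.8 in BIO, 15.5 in CHIR99021 and 37.3 in vitamin C. CHIR99021 was the lowest library for these on this scale. The same scale moved all microRNA ratios of CHIR99021 against DMSO by -0.93, with 52.5% of all arms called lower.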

How the data were processed

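The files hold the count of each distinct small RNA tag in 1 library per group, as the authors deposited them. Per the labels' protocols, total RNA was isolated with TRIzol and libraries were made with an Illumina TruSeq RNA kit; per the submitters' processing notes the build was mm9. Adapter trimming and aligner are not given in the sources used here, and the label of the BIO library says its raw data were lost.

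Tags of 18 to 26 bases that matched a GENCODE M21 (GRCm38) hairpin exactly, and no rRNA, tRNA of mitochondria, snRNA or snoRNA, were summed per arm when they began within 2 bases of the arm's most abundant start; tags of several arms were split evenly. Counts were scaled to the microRNA tags of the library (CPM); log2 ratios used a pseudocount of 0.5 counts. Ratios have 95% exact conditional binomial intervals, and no test between conditions was possible with 1 library per group. An arm is measured where its higher library has 10 CPM or more, and called at a 2-fold difference with an interval that excludes 1. The members, lists and rules were chosen with earlier results of these data known. Named arms are the 10 most abundant, in each comparison the 5 highest and 5 lowest ratios at 100 CPM or more and every called arm, arms that share a seed, and the 3 hairpins whose arm use varied most. Arms named for mixed 5′ ends, tag length, added bases, A-to-G shares or as exceptions to a count were chosen after their values were seen. Sequences are RefSeq's for GRCm38.p6.

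Alternatives were other scalings (TMM from edgeR 4.0.16, median of ratios from DESeq2 1.42.0, all tags), minimum levels, tag lengths, tag assignments and the other vehicle. The counting was checked on simulated data. Python 3.11.15, numpy 2.4.6, scipy 1.17.1, pandas 2.3.3, matplotlib 3.10.9 and R 4.3.3 were used.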

Additional observations from a re-analysis of the deposited data

How the results depend on the processing

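The lower summed level and median of the members in CHIR99021 and BIO kept their direction under all alternatives run. Of the 22 members called lower in CHIR99021, 16 were still called under median-of-ratios scaling, 18 under TMM and 13 against ddH2O. In all, 16 of 56 members were called lower under median-of-ratios scaling, 18 of 56 under TMM and 18 of 58 against ddH2O. Of all arms, 9.16%, 10.2% and 13.7% were called lower in these settings. Scaled to all tags, which moved all ratios by -0.93, 54 of 54 members were lower beside 52.5% of all arms. In BIO, 4 of 55 members were lower under median-of-ratios scaling, 4 of 44 with a minimum of 50 CPM and 16 of 54 scaled to all tags. Of all arms, 3.56%, 3.62% and 10.6% were lower. Without Mir3072, 20 of 52, 8 of 52 and 11 of 54 members were called in CHIR99021, BIO and retinoic acid. Of all arms, 12.3%, 5.3% and 33.2% were called. This alternative was chosen after seeing the data, as was the other vehicle for neighbouring hairpins. Retinoic acid depended on scaling most, with 56 members measured under each. Under TMM 4 were higher and 2 lower (18.8% and 17.9% of all arms). Under median-of-ratios scaling 6 were higher (21.7%), and scaled to all tags 0 were higher and 32 lower (9.57% and 55.2%). Leaving out tags counted once gave 1 of 56 lower, beside 8.58% of all arms. Scaled to all tags, the retinoic acid log2 ratio turned to -0.50 for miR-134-5p, -0.49 for miR-154-3p, -0.57 for miR-154-5p, -0.20 for miR-3072-3p, -0.49 for miR-410-3p, -0.038 for miR-412-3p, -0.084 for miR-487b-3p, -0.47 for miR-495-5p, -0.038 for miR-543-5p and -0.42 for miR-758-3p. Vitamin C against the other vehicle gave 1 of 57 higher, beside 8.68% of all arms. In ddH2O against DMSO, 2 of 58 were lower under each of TMM, median of ratios and all tags. Of all arms, 4.13%, 4.13% and 8.47% were lower. Without tags counted once, 1 of 56 was higher and 1 lower, beside 5.11% and 3.4%. With untemplated ends 1 of 57 was higher beside 5.5%, and with the most abundant tag alone 1 of 53 was lower beside 3.1%. Of all other values under the alternatives (single arms, arm shares, neighbouring hairpins, sums and medians), 2428 stayed on their side of the threshold or within their interval, 77 lost and 65 gained a call, 259 moved and the 10 above reversed. The cause of these changes was not tested. No paired analysis was possible because each group is 1 library. Variation between cultures is unknown, and minor arms under 50 CPM rest on few tags.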
